A study of Homo sapiens with 6 samples.

Results

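YWHAE is the gene of 14-3-3 epsilon, and this account covers the DHX9 peaks that lay on its RNA in HEK293 cells. The members were all peaks on the minus strand of chromosome 17 that overlapped the range chr17:1247834-1303556 of the human assembly hg19, which is 55723 nt long. The gene is read from the minus strand, so its 5′ end is base 1303556 and its 3′ end is base 1247834. These ends were taken as given and not checked against an hg19 annotation, and every distance from an end of the gene rests on them. There were 120 members among the 28449 peaks deposited for the series. Of these, 83 of 21618 came from the antibody labelled DHX9-Rb and 37 of 6831 from the antibody labelled DHX9-mAb. The gene was chosen by its many peaks in both lists and by their overlap. Both are therefore given as a description, with no test.

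HEK293 is an established human line of embryonic kidney origin. Cells were irradiated with ultraviolet light and DHX9 was pulled down by FLASH, an assay that sequences the RNA fragments tied to a protein. The groups were DHX9-mAb, DHX9-Rb and a control immunoglobulin, IgG-Rb, with 2 biological replicates each and no other treatment in the labels. Each DHX9 list stands for both replicates of its antibody. It gives a position and a strand per peak, with no height, so read depth is unknown and no error can be set beside a peak number. The IgG-Rb samples were not analysed here, so there is no background level in a control at YWHAE.

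The 14-3-3 proteins are small adaptors that form dimers and hold other proteins by short phosphorylated motifs. In this way they act in signalling, the cell cycle and the placing of proteins in the cell. The epsilon form is made in most tissues, and its gene lies in the region lost in Miller-Dieker syndrome, a disorder of brain formation. DHX9, or RNA helicase A, is a mostly nuclear enzyme that opens paired RNA. Unspliced RNA offers such pairs where repeats such as Alu elements sit in opposite directions in an intron. A peak here is a stretch of RNA where fragments cross-linked to DHX9 piled up enough to be called.

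The files name no genes, so the name YWHAE rests on the range alone. GENCODE 29, which is on another assembly (GRCh38), also has the gene (ENSG00000108953) on the minus strand, 56107 nt long. Its transcript YWHAE-201 has 6 exons with a summed length of 2211 nt, or 3.94% of that gene. In 5′ to 3′ order the introns are 34988, 2850, 603, 6744 and 8711 nt long, and the last exon is 1228 nt long. Positions were not carried between assemblies, so no single peak is called exonic or intronic. Lengths alone still set a limit. The DHX9-Rb peaks covered 19991 nt and the DHX9-mAb peaks 7848 nt. If exons have these lengths in hg19 too, at least 17780 nt (88.9%) of the DHX9-Rb sequence and 5637 nt (71.8%) of the DHX9-mAb sequence lay outside the exons of YWHAE-201. Against the exons of all 13 GENCODE transcripts in sum (3847 nt, counting each base once), the lower limits were 80.8% and 51%. Most of the marked sequence was thus not exon sequence of these transcripts.

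DHX9-Rb marked YWHAE at 1.49 peaks per kb and DHX9-mAb at 0.664 peaks per kb. The DHX9-Rb peaks covered 35.9% of the gene range and the DHX9-mAb peaks 14.1%. Peaks of either antibody covered 38.6%. For every DHX9-Rb peak of YWHAE there were 0.446 peaks of DHX9-mAb, and 0.316 over the whole lists.

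All peaks of both antibodies but a single one fell in a pair of groups separated by a long empty stretch. Groups were parted at stretches of at least 2 kb without a peak of either list. The group nearer the 3′ end ran over chr17:1250613-1263644, which is 39912 to 52943 nt from the 5′ end. It held 29 DHX9-Rb and 19 DHX9-mAb peaks in 13032 nt. The group nearer the 5′ end ran over chr17:1273213-1300798, from 2758 to 30343 nt from the 5′ end. It held 53 peaks of DHX9-Rb and 18 of DHX9-mAb in 27586 nt. The DHX9-mAb peaks were therefore split almost evenly between the groups, and most DHX9-Rb peaks were in the 5′ group. The remaining member was a DHX9-Rb peak of 122 nt at chr17:1303380-1303501, which began 55 nt inside the 5′ end of the range.

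**Figure D1:**
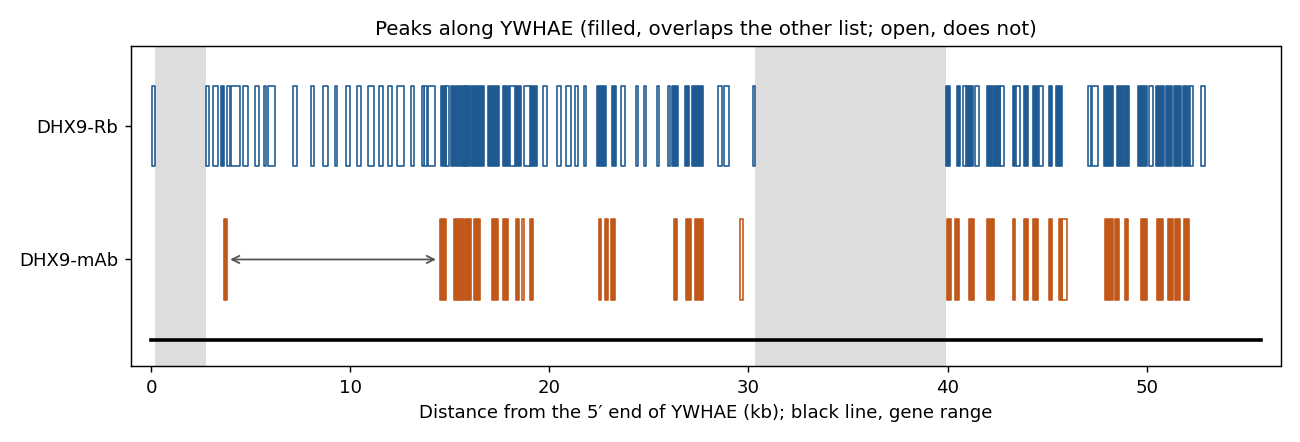
Peaks of DHX9-Rb (upper row) and DHX9-mAb (lower row) by distance from the 5′ end of YWHAE in kb, with filled boxes for peaks that overlap the other list and grey for stretches of at least 2 kb without any peak. Both lists leave the same 9.57 kb empty, and the arrow spans the 10.7 kb where only DHX9-Rb had peaks.

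The longest stretch without any peak was chr17:1263645-1273212, 9568 nt or 17.2% of the gene. On its 3′ side both lists stopped almost together, with the last DHX9-Rb peak at chr17:1263446-1263644 and the last DHX9-mAb peak at chr17:1263405-1263597. On its 5′ side the first DHX9-Rb peak was at chr17:1273213-1273305 and the first DHX9-mAb peak at chr17:1273812-1273996, and these did not overlap each other. The next stretch, chr17:1300799-1303379, was 2581 nt long and set the single peak at the 5′ end apart. No other stretch between peaks reached 2 kb, and the next longest, in the 3′ group, was 1060 nt. The last 2779 nt of the range, next to the 3′ end, also held no peak.

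DHX9-mAb left a further part of the gene empty that DHX9-Rb marked throughout. Between chr17:1289074 and chr17:1299771, over 10698 nt or 19.2% of the gene, there was no DHX9-mAb peak. The same sequence held 20 DHX9-Rb peaks from chr17:1289308 to chr17:1299739, which was the longest run of DHX9-Rb peaks without a partner in the gene. These 20 peaks had a median width of 219.5 nt, ranging from 79 to 462 nt, and covered 41.5% of the stretch. In the rest of the 5′ group 33 DHX9-Rb peaks had a median width of 240 nt and covered 49.4% of the sequence. Neighbouring DHX9-Rb peaks were 330 nt apart at the median in the stretch, edge to edge, and 207 nt apart in the rest of the 5′ group. DHX9-Rb thus marked the stretch along its length, with wider spacing than around it. It was picked as the longest gap of the DHX9-mAb list, so its lack of shared peaks follows from the choice. Shorter DHX9-mAb gaps of 3315 nt (from chr17:1281054 to chr17:1284368) and 2955 nt (from chr17:1277319 to chr17:1280273) each held 5 whole DHX9-Rb peaks.

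In bins of 2 kb counted from the 5′ end, the fullest DHX9-Rb bins had 6 peaks, at 14 to 16, 40 to 42 and 42 to 44 kb. The fullest DHX9-mAb bins had 4 peaks, at 26 to 28, 42 to 44, 44 to 46, 48 to 50 and 50 to 52 kb. From 4 to 14 kb every bin had 2 to 4 DHX9-Rb peaks and none had a DHX9-mAb peak. Of the 28 bins, 12 had midpoints of both lists, 11 of DHX9-Rb alone, 0 of DHX9-mAb alone and 5 of neither. Pearson's r between the peak numbers of the lists was 0.60 and Spearman's rho 0.58 over the 28 bins. The bins belong to 1 transcript and share its empty parts, so these are descriptions.

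**Figure D2:**
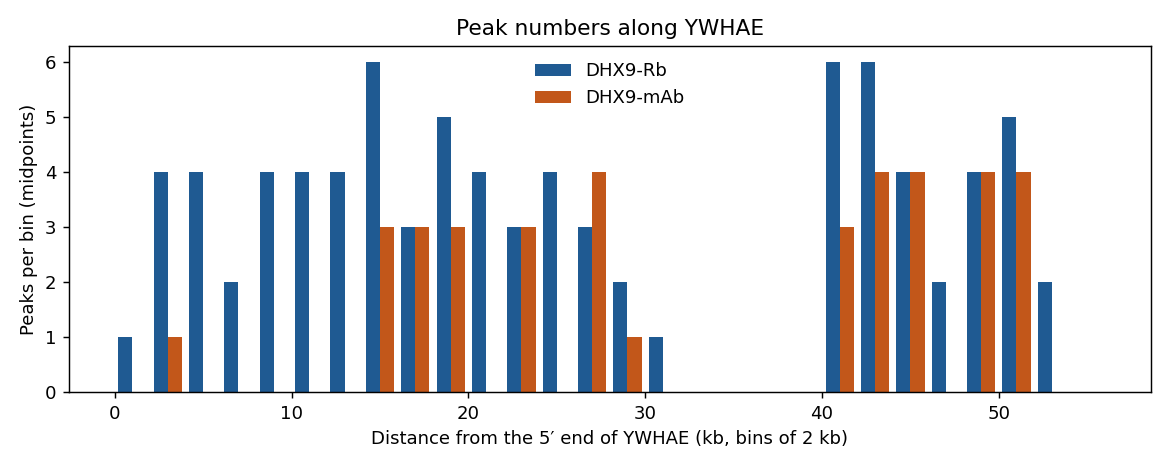
Number of peak midpoints in each bin of 2 kb from the 5′ end of YWHAE (distance in kb), blue for DHX9-Rb and orange for DHX9-mAb. DHX9-Rb bins reach 6 peaks and DHX9-mAb bins 4, and between 4 and 14 kb there are DHX9-Rb peaks only.

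Beyond the gene, peaks were sparse on the 3′ side and began again well before the 5′ end. The nearest peak past the 3′ end was a DHX9-Rb peak of 121 nt at chr17:1244385-1244505, 3328 nt beyond the range. It was the only DHX9-Rb peak on the minus strand within 50 kb of that end, and DHX9-mAb had 0 there. Before the 5′ end the nearest minus-strand peaks lay 25452 nt (DHX9-Rb, chr17:1329009-1329334) and 25709 nt (DHX9-mAb, chr17:1329266-1329553) away. Within 50 kb before the 5′ end DHX9-Rb had 32 peaks on that strand and DHX9-mAb 11. On the plus strand neither list had a peak inside the range or within 50 kb of it. The nearest plus-strand peaks were 433.0 kb (DHX9-Rb) and 441.5 kb (DHX9-mAb) away. The marking of YWHAE was on its own RNA strand in both lists.

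Peaks inside the groups followed each other closely, in a gene chosen for its many peaks. From the edge of a DHX9-Rb peak to the next it was 208 nt at the median (interquartile range 89.8 to 370.8), about the width of a peak. This is over all 82 neighbouring pairs of the gene, with those across the stretches between groups. Inside the groups the median was 139.5 nt (3′ group) and 219.5 nt (5′ group). Of the 82 pairs, 20 were 0 to 99 nt apart and 4 were 1 kb or more apart. Of these 4, 1 was inside the 3′ group and 1 inside the 5′ group. A further 2 pairs overlapped within the DHX9-Rb list, by 26 nt (chr17:1260722-1260932 with chr17:1260907-1261276) and by 81 nt (chr17:1287507-1287832 with chr17:1287752-1288102). Regions of 1 list could thus overlap as deposited.

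DHX9-mAb peaks were farther apart, with a median of 341.5 nt over 36 pairs (interquartile range 175.8 to 628.2). The closest DHX9-mAb neighbours were 25 nt apart, and 6 pairs were 1 kb or more apart. From midpoint to midpoint the medians were closer to each other, at 463.5 nt for DHX9-Rb and 510.5 nt for DHX9-mAb.

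DHX9-Rb peaks in YWHAE had a median width of 214 nt (interquartile range 160 to 306), and 201 nt in the whole list. DHX9-mAb peaks had a median width of 193 nt (145 to 258), and 191 nt in the whole list. Both medians were close to those of their lists. The widest DHX9-Rb peak was 560 nt, at chr17:1286859-1287418, and the narrowest 79 nt, at chr17:1294229-1294307. The widest DHX9-mAb peak was 506 nt, at chr17:1287852-1288357, and the narrowest 93 nt, at chr17:1280961-1281053. The widest peak of each list thus lay in the same part of the 5′ group, 15 to 17 kb from the 5′ end. DHX9-Rb peaks that overlapped a DHX9-mAb peak had a median width of 301 nt (n = 34 peaks), and the others 196 nt (n = 49 peaks). The ranges overlapped widely, from 97 to 560 nt and from 79 to 462 nt. Since a wide peak can more easily meet a neighbour, these measures are linked by construction.

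**Figure D3:**
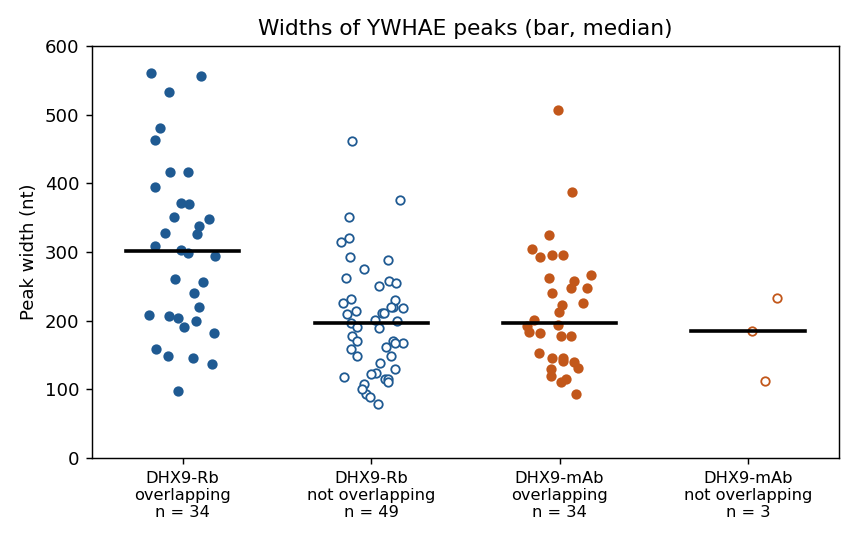
Width in nt of each YWHAE peak (points) by antibody and by overlap with the other list, with bars at the medians. The median is 301 nt for overlapping DHX9-Rb peaks and 196 nt for the other DHX9-Rb peaks, with wide overlap of the points.

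Nearly all DHX9-mAb peaks in YWHAE touched a DHX9-Rb peak, and a smaller share of DHX9-Rb peaks touched a DHX9-mAb peak. Peaks were counted as shared where the lists had 1 nt or more in common on the same strand. Of the 37 DHX9-mAb peaks 34 were shared, or 91.9% (95% Wilson interval 78.7 to 97.2), and 88.0% of the whole DHX9-mAb list were. Of the 83 DHX9-Rb peaks 34 were shared, or 41% (31 to 51.7), and 28.6% of the whole DHX9-Rb list were. Where overlap had to reach 50% of each peak, 22 peaks of each list were shared. These were 59.5% of the DHX9-mAb peaks (62.1% in the whole list) and 26.5% of the DHX9-Rb peaks (19.6%). With midpoints at most 100 nt apart the shares were 67.6% (71.4% in the whole list) and 30.1% (22.6%). The intervals treat peaks as independent and cover counting error only. Peaks of 1 gene are not replicates, so the intervals are no test against the whole lists. The share of DHX9-mAb peaks was near that of its list under each of these rules. The gene was picked for its shared peaks, so the higher share of DHX9-Rb peaks is no finding.

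Agreement differed along the gene. In the 3′ group 19 of 29 DHX9-Rb peaks (65.5%) were shared, and in the 5′ group 15 of 53 (28.3%). The share in the whole DHX9-Rb list was 28.6%, so the 5′ group was near the level of the series. There were 0.655 DHX9-mAb peaks per DHX9-Rb peak in the 3′ group, 0.34 in the 5′ group and 0.316 over the whole lists. Of the DHX9-mAb peaks, 18 of 19 (94.7%) were shared in the 3′ group and 16 of 18 (88.9%) in the 5′ group (88.0% in the whole list). Stricter rules parted these shares. With overlap of 50% of each peak they were 15 of 19 (78.9%) and 7 of 18 (38.9%), and 62.1% in the whole list. With midpoints at most 100 nt apart they were 15 of 19 and 10 of 18 (55.6%), and 71.4% in the whole list. Outside the DHX9-mAb gap with its 20 DHX9-Rb peaks, 15 of 33 DHX9-Rb peaks of the 5′ group (45.5%) were shared, still a smaller share than in the 3′ group. The groups are parts of 1 gene without replicates, so the difference was not tested.

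The 3 DHX9-mAb peaks without a partner were near DHX9-Rb peaks. The peak at chr17:1257555-1257787 was parted from a DHX9-Rb peak by 1 nt. So was the peak at chr17:1284829-1284940. The third, at chr17:1273812-1273996 and next to the long empty stretch, was 506 nt from the nearest DHX9-Rb peak. Only this last site thus stood clear of the DHX9-Rb list. The 49 DHX9-Rb peaks without a partner were at a median of 713 nt from the nearest DHX9-mAb peak, and 20 of them were 1 kb or more away. Another 9 were less than 100 nt away. The farthest, at 5155 nt, was also the narrowest DHX9-Rb peak.

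Counted in nucleotides, 6354 nt of YWHAE were covered by both antibodies. This overlap made up 81.0% of what DHX9-mAb covered, 31.8% of what DHX9-Rb covered and 29.6% of what at least 1 of them covered. Over the whole lists the shares were 73.8%, 22% and 20.4%. The last of these shares was 42.8% in the 3′ group and 22.3% in the 5′ group.

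The shared peaks formed 38 overlapping pairs, because 4 DHX9-mAb peaks touched 2 DHX9-Rb peaks and 4 DHX9-Rb peaks touched 2 DHX9-mAb peaks. Midpoints of a pair were 51.5 nt apart at the median (interquartile range 25 to 129.4), against 43 nt over all 6781 pairs of the series. In 19 of 38 pairs (50%) the midpoints were at most 50 nt apart, against 54.5% of all pairs of the series. In 13 pairs they were over 100 nt apart. The median was 37.8 nt for the 20 pairs of the 3′ group and 84.8 nt for the 18 pairs of the 5′ group. The DHX9-mAb midpoint was nearer the 5′ end in 17 pairs and nearer the 3′ end in 21, so neither side prevailed. The DHX9-Rb peak was the wider one in 28 pairs (73.7%), and in 65.4% of all pairs of the series. In 16 pairs (42.1%) the DHX9-mAb peak lay wholly inside its DHX9-Rb partner, and in 32% of all pairs of the series.

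The closest pair was chr17:1259519-1259696 (DHX9-mAb, 178 nt) and chr17:1259517-1259707 (DHX9-Rb, 191 nt), with midpoints 4.5 nt apart. Close to it in the 3′ group, chr17:1260160-1260269 (DHX9-mAb, 110 nt) and chr17:1260175-1260271 (DHX9-Rb, 97 nt) had midpoints 8.5 nt apart. These sites were almost the same in both lists. The midpoints farthest apart, by 280.5 nt, belonged to chr17:1287516-1287777 (DHX9-mAb) and chr17:1287752-1288102 (DHX9-Rb). That DHX9-mAb peak lay wholly inside another DHX9-Rb peak, chr17:1287507-1287832, 1 of the pair of DHX9-Rb peaks that overlap each other. The smallest overlap was 3 nt, between chr17:1299772-1299912 (DHX9-mAb) and chr17:1299910-1300046 (DHX9-Rb). This was the only DHX9-mAb peak on the 5′ side of the 10698 nt gap.

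**Figure D4:**
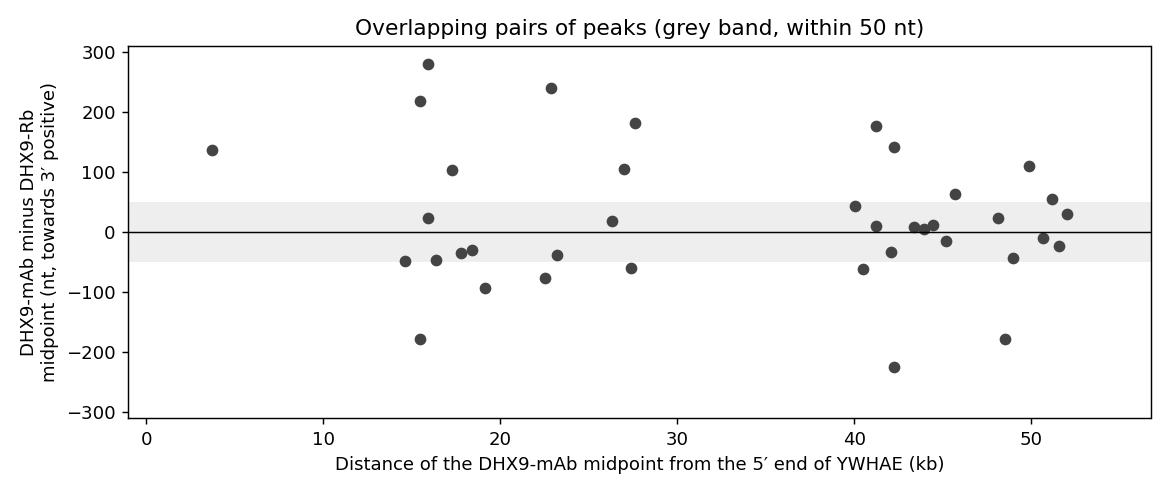
For the 38 overlapping pairs, the DHX9-mAb midpoint minus the DHX9-Rb midpoint in nt (positive towards the 3′ end) by distance from the 5′ end in kb, with a grey band at 50 nt on either side. Of the points 19 lie within the band, and the largest distance is 280.5 nt.

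YWHAE was set beside the other dense places of the series. These were the 25 windows of 100 kb that held at least 50 DHX9-Rb peaks on 1 strand, with each peak placed by its midpoint. The window with most of YWHAE held 81 DHX9-Rb and 37 DHX9-mAb peaks, of which 80 DHX9-Rb peaks belong to the gene. Another 3 DHX9-Rb peaks of the gene fell in the next window. It ranked 4 of 25 by DHX9-Rb peaks, level with 1 other window, and 10 of 25 by the share of DHX9-Rb peaks that were shared (42.0%, median of the others 38.2%). Its DHX9-Rb peaks covered 35.2% of their span, against a median of 23.6% in the others (range 12.5 to 62.3), which ranked 7. Its median gap between DHX9-Rb peaks was 213 nt, near the median of the others, 198.5 nt (range 97 to 407), and ranked 10. Such spacing was thus usual for dense windows. Its longest gap between DHX9-Rb peaks, 9568 nt, was shorter than the median of the others, 16280.5 nt, and ranked 18. That place depends on where the window ends: with windows shifted by 50 kb, the window also held peaks upstream of the gene and its longest gap was 25507 nt, which ranked 6. Coverage by DHX9-Rb peaks moved too, to 28.3% of the span in the shifted window. Long empty stretches were common among the unshifted windows. The other windows were not limited to 1 gene, so their gaps and coverage can take in sequence between genes. The 9568 nt gap lies inside YWHAE, so these measures are not fully alike.

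The 3 windows nearest to it in DHX9-Rb peak number were named by position. The first, chr5:138942530-138999934 on the plus strand, had 81 DHX9-Rb and 24 DHX9-mAb peaks, a longest DHX9-Rb gap of 4376 nt and 29.6% of DHX9-Rb peaks shared. The second, chr19:58300715-58385035 on the plus strand, had 74 and 39 peaks, a longest gap of 9669 nt and 48.6% shared. The third, chr16:89800955-89881723 on the minus strand, had 90 and 54 peaks, a longest gap of 13412 nt and 60.0% shared. The longest DHX9-mAb gaps of these windows were 10853, 13282 and 14639 nt, and that of YWHAE was 10698 nt. The window of YWHAE had 0.457 DHX9-mAb peaks per DHX9-Rb peak, and the chromosome 5, 19 and 16 windows had 0.296, 0.527 and 0.6. Of its DHX9-mAb peaks 91.9% were shared, and 95.8%, 92.3% and 98.1% in these windows. The shares rest on few DHX9-mAb peaks (37, then 24, 39 and 54), so no order is read from them. No measure was tested between these places.

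**Figure D5:**
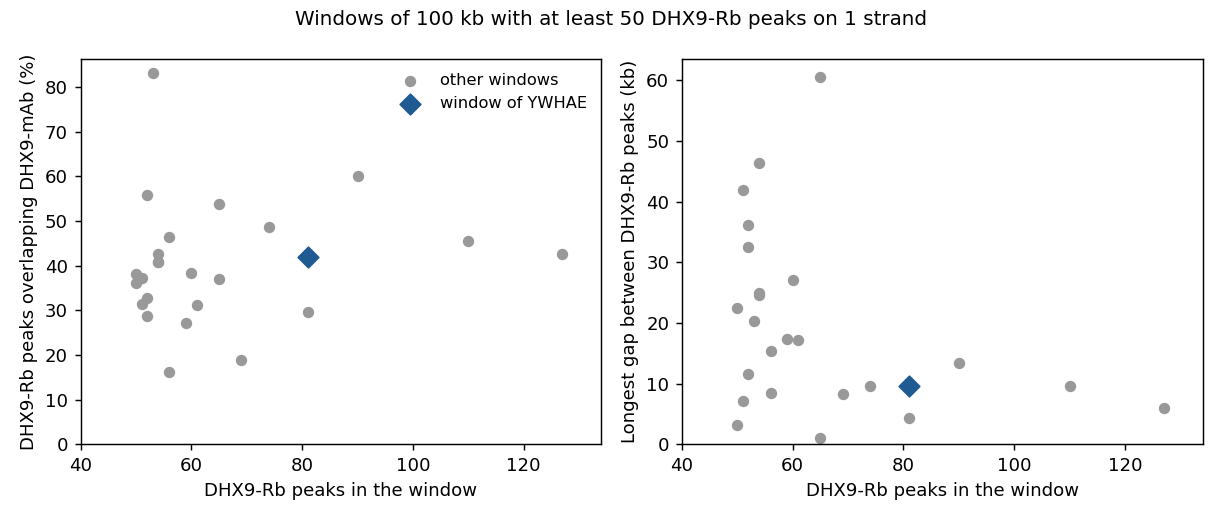
The 25 dense windows (50 or more DHX9-Rb peaks on 1 strand), by DHX9-Rb peak number against the percent of DHX9-Rb peaks overlapping DHX9-mAb (left) and against the longest gap between DHX9-Rb peaks in kb (right). The window of YWHAE (diamond) has 81 peaks, 42.0% shared and a gap of 9.57 kb, inside the range of the others.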

How the data were processed

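The deposited files hold the first and last base and the strand of each peak region, counted from 1 in hg19. Per the submitters' processing notes, Bowtie2 2.2.6 was used, and per the files' second column the authors called peaks with PEAKachu. The sources used here do not give its version, control or threshold, the use of the replicates or the treatment of reads from repeats. Each of these could change which peaks were called. Per the labels' protocols, random bases served to merge PCR duplicates, and IgG material was mixed with DHX9 material before cDNA was made.

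Members were taken by overlap of at least 1 nt with the gene range on the minus strand. The members, the range and the measures were chosen with earlier results of these data known. Peaks, gaps and pairs were named by a fixed rule: the extremes of each list, and the 3 windows nearest in DHX9-Rb peak number. The runner-up among close pairs, the smallest overlap, and the shorter gaps were added after their values had been seen. Peaks of 1 gene are not replicates, so no test was made. No sequence is printed, because no hg19 sequence was used here. Exon, intron and Alu classes of peaks, planned for an hg19 reference, were not run. The interval functions were tested on simulated data. Calculations used Python 3.11.15, NumPy 2.4.6 and SciPy 1.17.1.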

Additional observations from a re-analysis of the deposited data

How the results depend on the processing

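No paired analysis was possible because there is 1 list per antibody, not split by its 2 replicates. Of 42 alternatives, 19 stayed within the limits set (1.5 times for counts and ranks, the Wilson interval for shares, no change for medians and correlations). Requiring overlap of 50% of each peak left 22 shared peaks in each list (26.5% of DHX9-Rb, 59.5% of DHX9-mAb), and midpoints at most 100 nt apart gave shares of 30.1% and 67.6%. Merging peaks less than 50 nt apart moved the median width to 220 nt (DHX9-Rb) and 212 nt (DHX9-mAb) and the median spacing to 242.5 and 388.5 nt. Spacing from midpoint to midpoint was 463.5 and 510.5 nt. With a minimum of 5 kb, 1 stretch without peaks was left. Bins of 1 kb gave r 0.50 and rho 0.53, and bins of 5 kb gave 0.68 for both. With at least 30 DHX9-Rb peaks there were 107 dense windows, and YWHAE ranked 39 by shared part and 75 by longest gap. With windows shifted by 50 kb it ranked 1 by peak number, 16 by shared part and 6 by longest gap. That window also held the group upstream of the gene, 112 DHX9-Rb peaks in all. Read depth is unknown and limits every count.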
